A study of Mus musculus with 14 samples.

Results

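The untreated resident mast cells of mouse ear skin were described here from 5 of the 14 RNA sequencing libraries of a study of mast cells in normal and atopic dermatitis-like skin. The 5 libraries were taken by their labels, which give the treatment as "nt" (not treated) and the cell type as resident mast cells. The other 9 libraries came from mice treated with MC903, a vitamin D analogue that brings on dermatitis when put on skin, and were not used, so no groups were compared or tested. For each library, no more than 100 cells were sorted from both ears, cDNA was made by the SMART-Seq HT method, which amplifies full-length poly(A) transcripts, and sequencing libraries were made by Nextera XT tagmentation. The labels give no strain, sex, age or number of animals, and do not say whether the libraries came from separate mice, so the spread given here is that between these 5 libraries and may be partly technical. Total counts were 17706764, 24918890, 27068993, 22001655 and 25757495. Sets of 5 values run from library 1 to library 5 throughout.

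Mast cells are long-lived immune cells of barrier tissues that carry dense granules of proteases, histamine and other mediators held on the proteoglycan serglycin. They release these when antigen crosslinks IgE on the high-affinity receptor FcεRI or when other receptors are engaged, and they depend on the receptor tyrosine kinase KIT for survival. The mast cells that reside in mouse skin are of the connective tissue type, known for chymases, tryptases and carboxypeptidase A3.

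Levels are given as TPM (transcripts per 1000000), in which the count of a gene is divided by its exon length and scaled so that all genes of a library sum to 1000000. On this scale a very short gene needs few reads to reach a high value, and one such gene bore on every other level. The highest nuclear value belonged to Gm23935, a 57-base gene annotated as a miRNA, with 65553, 142991, 101991, 131979 and 18786 counts and 149061, 208095, 149548, 215342 and 29819.9 TPM. It made up 0.0729% to 0.6% of counts but 2.98% to 21.5% of TPM, and was lowest in library 5. Gm24187, Gm24245 and Gm24270 have the same 57 bases or differ at 1 base, and they are shown because reads from any of them could be placed on another. Letters in capitals mark a base that differs from Gm23935, and the sequences are those of GENCODE M21 (GRCm38), each read 5′ to 3′ on its own strand.
Gm23935: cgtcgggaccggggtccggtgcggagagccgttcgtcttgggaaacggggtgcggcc
Gm24270: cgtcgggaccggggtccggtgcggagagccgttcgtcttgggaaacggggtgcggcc
Gm24245: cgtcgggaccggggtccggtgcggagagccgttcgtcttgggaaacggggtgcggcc
Gm24187: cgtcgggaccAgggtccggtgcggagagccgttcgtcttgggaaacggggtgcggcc

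Gm23935 lies at chr16:11144125-11144181 on the plus strand, in an intron of Zc3h7a, which is on the other strand. Gm24270 lies at chr9:56223715-56223771 on the minus strand, in an intron of Peak1, and Gm24245 at chr4:139338304-139338360 on the plus strand. Gm24187 lies at chr13:9834469-9834525 on the minus strand and differs from Gm23935 by G11A, counted from 1 at the 5′ end with the Gm23935 base first. Gm24270 had 6551, 9810.2, 6695, 9695 and 556 TPM, so identical sequences were given levels that differed more than 20-fold in every library. All 4 genes had their lowest level in library 5. How the counting treated reads that map to several places is not given in the sources used here, and the part of that step in these levels was not tested.

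Because these genes took a different share of each library, nuclear protein-coding genes held 76.4%, 71.2%, 76.8%, 70.4% and 89.4% of TPM, against 94.5% to 95.1% of counts. The TPM of other genes in library 5 were thereby raised relative to the other libraries. Library 5 also stood apart by transcript length, as described with the agreement of the libraries. Without library 5, the 10 most abundant genes held 40.3% of TPM in place of 38.8%, the granule proteases 12.5% in place of 13.1%, and 9530 in place of 8965 genes were at 1 TPM or more in every library. Where libraries are compared, levels are also given as protein-coding TPM, scaled so that the 21890 nuclear protein-coding genes sum to 1000000; the scaling multiplied TPM by 1.31, 1.41, 1.3, 1.42 and 1.12.

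The libraries, labelled as resident mast cells, carried transcripts that define this cell type. The marker list was chosen with earlier results of these data known, so its levels are a description and not a test of identity. All 11 mast cell markers were above 100 TPM in every library, with a median over the markers of 1549 TPM, against 3.21% of nuclear protein-coding genes above 100 TPM in every library. Kit, the receptor for stem cell factor, was at 519, 391, 508, 391 and 179 TPM, and Fcer1a, the IgE-binding chain of FcεRI, at 1507, 1479.8, 1182, 1312 and 2263 TPM. Il1rl1, the receptor for IL-33, had the lowest mean of the 11 markers, at 202 TPM ± 52.6 (SD, n = 5).

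Most markers of other cell types were low. Of 93 genes on 13 such lists, 79 had a mean under 1 TPM, as had 53.2% of all nuclear protein-coding genes; 9 of the 93 had a mean of 10 TPM or more, against 24.9% of all nuclear protein-coding genes. The summed level of 10 keratinocyte markers was between 0.619 and 5.56 TPM, that of 7 endothelial markers between 0.496 and 4.02 TPM, and that of 10 T cell markers between 0.336 and 5.35 TPM. The 6 neutrophil markers summed to between 0.322 and 1.41 TPM. The red cell genes Hba-a1, Hba-a2, Hbb-bs and Hbb-bt, the T cell genes Cd3e and Trdc, the complement genes C1qa and C1qc, the Langerhans cell gene Cd207 and the eosinophil peroxidase Epx had no count in any library. No count was likewise found for Krt15, Perp, Tyrp1, Cd79b, S100a9, Retnlg, Adipoq and Tnnt3. With 3 counts as the limit that a count of 0 allows, the highest level compatible with no count for any of the 21 list members without counts was 0.745 TPM; like every counting limit here this covers counting error only, since the reads were amplified and carry no molecular identifiers.

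Of those 9 genes, Gata2, Cd200r3, Mcpt8 and Itga2 were listed for basophils; Gata2 is also 1 of the 11 mast cell markers. Mcpt8, which encodes a protease known from basophils, was at 72.9, 75.7, 29.1, 18.7 and 51.2 TPM, and the basophil protease gene Prss34 had 32, 0, 2, 0 and 0 counts. Ighm, the constant region of the IgM heavy chain, was at 523, 672, 591, 591 and 787 TPM, whereas the B cell genes Cd79a and Pax5 had means of 1.02 and 0.0414 TPM and Cd79b had no count. Pdgfrb, a receptor for platelet-derived growth factor, was at 67.4, 78.1, 65, 63.7 and 34.5 TPM, and the fibroblast genes Col1a1, Col1a2, Dcn and Lum had means from 0.198 to 0.561 TPM. Ncam1, an adhesion molecule listed for Schwann cells, was at 46.5, 48.7, 49.6, 47.5 and 21.1 TPM. The lysosomal glycoprotein gene Cd68 was at 114, 50.2, 105, 35.6 and 109.9 TPM and lysozyme gene Lyz2 at 65.9, 35.3, 47.1, 109 and 95 TPM, with Csf1r, Adgre1 and Mrc1 at means under 0.3 TPM. In sorted pools, fewer cells of a type and less RNA per cell cannot be told apart, nor can a few cells of another type and a low level in every cell.

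**Figure D1:**
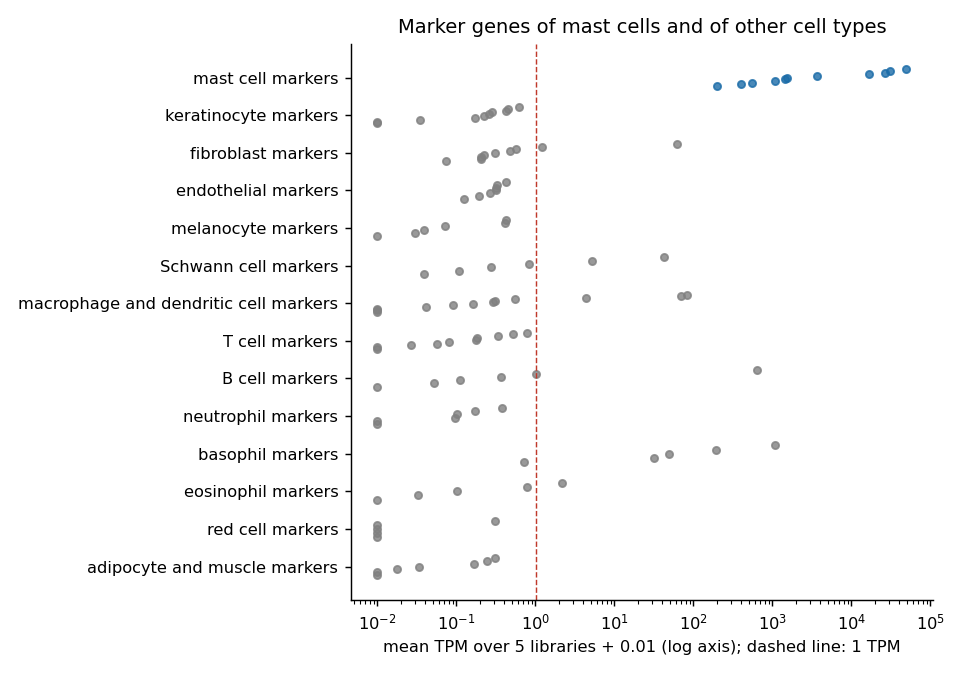
Mean TPM over the 5 libraries (plus 0.01, log axis) of each gene on the mast cell list (blue) and on 13 lists for other cell types (grey); the dashed line is at 1 TPM. All 11 mast cell markers lie above 200 TPM, while 79 of the 93 other markers lie under 1 TPM.

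The 10 most abundant genes of a library, Gm23935 included, held 37.6%, 42.2%, 38.1%, 43.3% and 32.7% of TPM, or 38.8% ± 4.22 (SD, n = 5). When nuclear protein-coding genes alone were counted, the top 10 held 30.5% ± 1.6 (SD, n = 5) and the top 100 held 51.7% ± 1.41 (SD, n = 5). Between 25 and 64 genes together reached 50% of TPM, and between 69 and 101 genes reached 50% of protein-coding TPM. These values rest on the scale: as a share of counts with no regard to length, the 10 leading genes held 15.8% and 268 genes on average reached 50%, and on TPM without the 57-base genes the values were 28.9% and 94 genes. Of the 30 nuclear genes with the highest mean TPM, 25 had a gene name and 5 only a predicted-gene or clone symbol, among them the rRNA-type gene CT010467.1 at 11892, 12125, 11246, 10282 and 12822 TPM.

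The most abundant named gene was Ccl7, a chemokine that attracts monocytes and eosinophils, at 61053, 57082, 63092, 54006 and 87936 TPM, a mean of 64634 TPM ± 13492 (SD, n = 5). Next came the chymase gene Cma1, with 45514, 41735, 46914, 44862 and 69852 TPM, and the carboxypeptidase gene Cpa3, with 28346, 26625, 28858, 28801 and 39909 TPM. In each of the 5 libraries Ccl7 was above Cma1, Cma1 above Cpa3, and Cpa3 above the chymase gene Mcpt4, which stood at 27104, 25349, 28511, 28334 and 24270 TPM. Serpinb1a, an inhibitor of neutrophil elastase and related proteases, followed at 21254, 17795, 18176, 17185 and 25942 TPM and was under Mcpt4 in 4 of the 5. The tryptase gene Tpsb2, at 16234, 15009.7, 18701, 16488 and 16558 TPM, was above the ferritin light chain gene Ftl1 in all 5 libraries.

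Below Ftl1, each pair of neighbours in the order of mean TPM changed places in at least 1 library, except Hdc and Lmna, down to the last of the 25 named genes. Ftl1, with a mean of 7309 TPM ± 1033 (SD, n = 5), was above the transcription factor gene Fos in 2 libraries, and Fos above Apoe, which encodes a lipid carrier, in 3. Apoe was at 5227, 6008, 6636, 5682 and 8126 TPM and the chemokine gene Ccl2 at 5611, 5224, 5428, 4795 and 6800.2 TPM. The polyubiquitin gene Ubb and Sqstm1, which encodes an autophagy receptor, had means of 5249.9 TPM ± 661 (SD, n = 5) and 5194 TPM ± 526 (SD, n = 5), with Ubb higher in 3 of the 5. The other named genes of the top 30 were Tpsab1, Nr4a1, Fcer1g, Junb, Hdc, Lmna, Sh3bgrl3, H3f3b, Lgals1, Dusp1, Plek, Eef1a1 and Gstm1, with means between 2969 and 4473 TPM. When each library's protein-coding genes were ranked, 7 genes were in the top 10 of all 5 and 14 in the top 10 of at least 1; for the top 100 these numbers were 75 and 129.

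**Figure D2:**
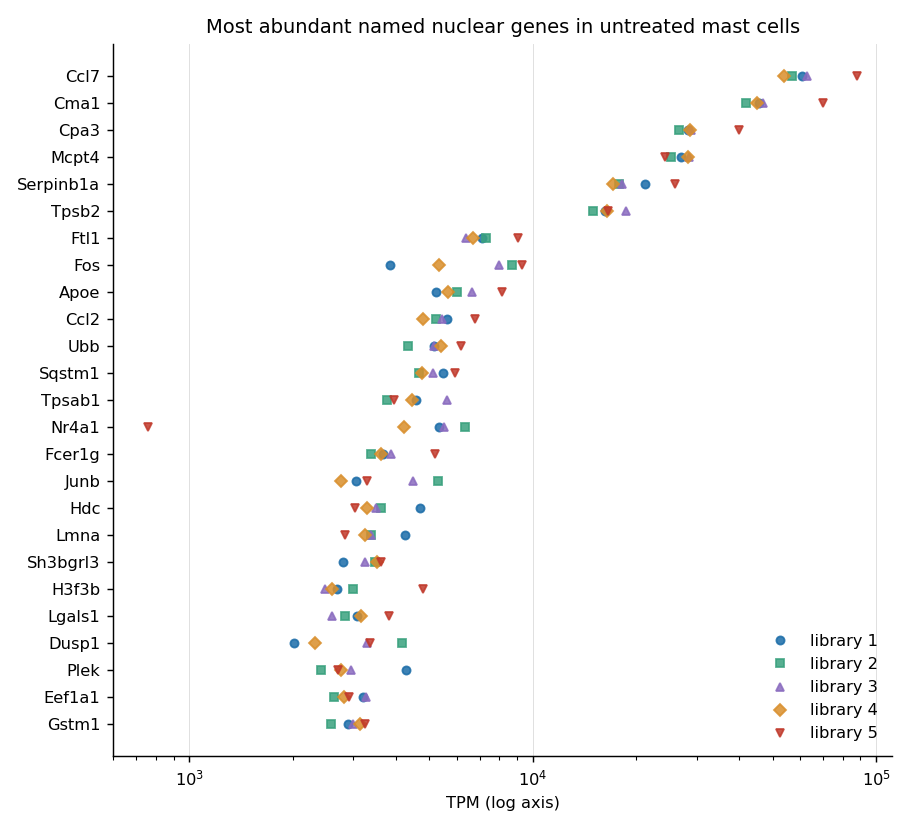
TPM (log axis) of the 25 named genes among the 30 most abundant nuclear genes, 1 symbol per library. Ccl7 and Cma1 lead in every library, library 5 is the highest for both, and Nr4a1 in library 5 (760 TPM) stands far to the left of the other 4 libraries.

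Granule proteases were the largest of the functional lists. The 16 genes held 12.5%, 11.6%, 13.2%, 12.6% and 15.9% of TPM, or 13.1% ± 1.65 (SD, n = 5); of protein-coding TPM they held 16.3%, 16.2%, 17.2%, 17.9% and 17.8%, or 17.1% ± 0.774 (SD, n = 5). As a share of counts, without scaling for length, they held a mean of 7.73%. Of these genes, 13 were at 1 TPM or more in every library, against 36.9% of all nuclear protein-coding genes, the share to set beside each such count. Cma1, Cpa3, Mcpt4 and Tpsb2 made up most of the sum. Tpsab1, the second tryptase gene, was at 4586, 3763, 5641, 4441 and 3934 TPM, and Tpsg1, which encodes a membrane-anchored tryptase, at 1918, 1830.3, 1695, 1938 and 2382 TPM. Ctsg, the gene of cathepsin G, was at 824, 829, 1173, 660.3 and 1297 TPM.

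Listed genes of the same locus differed widely in level. On chr14, 9 listed genes from Cma1 to Gzmb lie within 321 kb (GRCm38, chr14:55941451-56262260), and their mean levels ran from 2.29 TPM for Mcpt1 to 49775 TPM for Cma1. Cma2, next to Cma1, was at 106, 129, 132, 163 and 92.8 TPM. Mcpt9 and Mcpt2, between Cma2 and Mcpt4, had means of 11.3 and 10.4 TPM; Mcpt1 and Mcpt2 are known as genes of mucosal mast cells. Mcpt8, named above among the basophil markers, had a mean of 49.5 TPM, and Gzmb, encoding granzyme B, at 203, 231, 307, 107 and 712 TPM, with library 5 the highest. The neutrophil protease genes Elane and Prtn3 had counts only in library 3, at 23 and 31 counts. The 3 tryptase genes lie within 31.2 kb (chr17:25343245-25374442), with means from 1953 to 16598 TPM. These families hold similar sequences, so reads shared between members could be split in a way that depends on the counting.

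The 4 protease genes with the highest levels were Cma1, Cpa3, Mcpt4 and Tpsb2. RefSeq promoters (GRCm38.p6) of Cma1, Cpa3 and Mcpt4 are shown to set these abundant transcripts beside the sequence at their starts. The words searched in the 250 bases before the start were TATAAA on the gene's strand, and AGATAA and TGATAA, forms of the GATA factor motif, on both strands. The last 120 bases before the start are printed on the gene's strand, with any of these words in capitals: Cma1 at chr14:55944676-55944795, Cpa3 at chr3:20242182-20242301 and Mcpt4 at chr14:56062311-56062430, all on the minus strand.
Cma1: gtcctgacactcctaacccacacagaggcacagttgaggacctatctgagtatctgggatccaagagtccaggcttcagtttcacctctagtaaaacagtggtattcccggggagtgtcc
Cpa3: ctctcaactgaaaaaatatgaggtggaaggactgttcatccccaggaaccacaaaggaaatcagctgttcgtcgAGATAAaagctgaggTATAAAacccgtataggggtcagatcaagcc
Mcpt4: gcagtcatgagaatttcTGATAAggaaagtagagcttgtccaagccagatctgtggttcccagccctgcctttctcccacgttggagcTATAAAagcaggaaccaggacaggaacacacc

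In Cpa3, TATAAA began at -31 and AGATAA at -46 from the start, and in Mcpt4, TATAAA began at -32 and TGATAA at -103. None of these words was in the 250 bases of Cma1, although Cma1 had the highest level of the 3. Of all 32851 promoters in the table, 7.59% held TATAAA, 9.99% AGATAA and 7.94% TGATAA in the same 250 bases. Among 16515 nuclear protein-coding genes with an entry, these shares were 8.06%, 8.89% and 6.91%. Among the 78 of the 100 most abundant protein-coding genes with an entry, the shares were 12.8%, 8.97% and 6.41%. A word match is a description of the sequence, not a bound site.

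Transcripts for granule contents and for their storage were also high. Hdc, the enzyme that makes histamine, was at 4692, 3614, 3501, 3299 and 3029.9 TPM, highest in library 1. Srgn, the core protein of serglycin, was at 2473, 2020.3, 2272, 2397 and 3086 TPM, and Ndst2, a sulfotransferase of heparin synthesis, at 339.5, 323, 518, 365 and 322 TPM. The serotonin genes were lower than Hdc in every library. The serotonin transporter gene Slc6a4 was at 858, 784, 777, 737 and 852 TPM, Tph1, which begins serotonin synthesis, at 221, 199, 193, 136 and 235 TPM, and Ddc, which completes it, at 110.1, 71, 101, 72.2 and 122 TPM. The vesicular monoamine transporter gene Slc18a2 was at 371, 247, 359.8, 316 and 302 TPM and Maob, which degrades amines, at 659.6, 473, 495, 487 and 670.5 TPM. All 14 genes of this list were at 1 TPM or more in every library, and together they held 1.29%, 1.1%, 1.09%, 1.12% and 0.974% of protein-coding TPM.

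Among 21 genes of lysosome and granule membrane, 18 were at 1 TPM or more in every library. Cd63, a tetraspanin of granule membranes, was the highest at 1291, 1087, 1243, 1161 and 1759 TPM, followed by Laptm5, a lysosomal membrane protein gene, at 521 TPM ± 124 (SD, n = 5). Ctsd, an aspartic protease gene, was at 502 TPM ± 67.6 (SD, n = 5). The cysteine protease gene Ctss was at 0, 4.28, 10.6, 8.01 and 36.6 TPM, and Ctsh at a mean of 0.031 TPM.

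The 3 chains of FcεRI were all abundant. The shared γ chain gene Fcer1g was at 3659, 3387, 3865, 3626 and 5190.1 TPM, and was above Fcer1a and the β chain gene Ms4a2 (1353, 1266, 1438, 1219 and 1982 TPM) in every library. Of the adaptors downstream, Lat2 was at 670.3, 453, 599, 496 and 819.7 TPM and Lat at 178, 209, 230.0, 209 and 200.1 TPM. The phosphatase genes Ptpn6 and Inpp5d, both known to restrain signalling, had means of 248 TPM ± 45.6 (SD, n = 5) and 133 TPM ± 30.3 (SD, n = 5). Among kinases, Btk, Lyn and Fyn had means of 142, 122.3 and 119 TPM, against 22 TPM for Syk. Kit in library 5 was under every other library also as protein-coding TPM (679, 549, 661, 556 and 201). Kit has an exon length of 8911 bases, and library 5 was lower for long transcripts in general on that scale. The part of length in the Kit value was not tested. Of the 19 genes of the list, 18 were at 1 TPM or more in every library.

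Receptors for neuropeptides, alarmins and mediators ranged over more than 3 orders of magnitude. Mrgprb1, a Mas-related receptor, led the list at 1519, 939, 1362, 1337 and 1421 TPM. Mrgprb2, the receptor through which basic peptides and many drugs activate mouse mast cells, was at 578, 333, 557, 479.9 and 784 TPM. On chr7 the 5 listed Mrgprb genes found in the annotation lie within 333 kb (chr7:48311304-48643811); Mrgprb8 was at 83.4, 37.2, 73, 31.7 and 233 TPM, Mrgprb13, annotated as a pseudogene, at 75.5, 56.2, 75.3, 31.1 and 175 TPM, and Mrgprb3 at 0, 0, 1.41, 1.29 and 0 TPM. The listed symbol Mrgprb10 had no match in the annotation.

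Csf2rb, the common β chain of the IL-3, IL-5 and GM-CSF receptors, was at 533, 336, 412, 419 and 213 TPM, and Il2rg, the common γ chain, at 397, 299, 336, 334 and 478 TPM. The adenosine receptor gene Adora3 was at 275, 238, 287, 269.5 and 130.3 TPM and the ATP-gated channel gene P2rx1 at 194, 204, 188, 179 and 202 TPM. Crlf2, a chain of the TSLP receptor, was at 45.8, 46.9, 49.4, 50.6 and 24.5 TPM, while Il18r1, for IL-18, was at 3.9, 0.0861, 1.79, 0.444 and 0 TPM and Il17rb, for IL-25, at 0.105, 0.694, 0.135, 0.351 and 0.635 TPM. The bacterial sensor genes Tlr2 and Tlr4 were at 0.172, 1.73, 0.0555, 0 and 1.02 TPM and at 1.05, 0.179, 0.271, 0.067 and 0.603 TPM. The anaphylatoxin receptor gene C5ar1 was at 2.52, 0, 0.065, 0 and 0.282 TPM, nearly all of it in library 1. Csf2rb, like the Mrgprb genes, has a close copy in the genome, so its level is uncertain to the extent that reads were shared. Of 29 members matched, 19 were at 1 TPM or more in every library and 4 were under 1 TPM in all 5, as were 40.2% of all nuclear protein-coding genes.

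Of 25 inhibitory and adhesion receptor genes, 16 were at 1 TPM or more in every library. Lilr4b, of the leukocyte immunoglobulin-like receptor family, was at 1414, 951, 1221, 1136 and 843 TPM and the activating IgG receptor gene Fcgr3 at 599, 577, 655, 642 and 805 TPM, against 147, 107, 115, 134 and 147 TPM for the inhibitory IgG receptor gene Fcgr2b. Lilrb4a was at 319.8, 163, 280.3, 244 and 71.8 TPM, lowest in library 5. Itgb7, the integrin chain used to sort another mast cell population of the study, was at 231, 194, 254, 183 and 228 TPM in these resident cells, and Itga4, with which it pairs, at a mean of 2.22 TPM ± 0.553 (SD, n = 5). Its other partner, Itgae, had a mean of 0.357 TPM, and the leukocyte integrin genes Itgb2, Itgam and Itgax had means under 0.32 TPM. Itga2b and Itgb1 had means of 179 TPM ± 50.4 (SD, n = 5) and 171 TPM ± 18.2 (SD, n = 5).

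Gata2 was the most abundant of 23 lineage transcription factor genes, at 1059.8, 1203, 1286, 985 and 919.7 TPM. It was above Hes1, a target of Notch signalling, in every library; Hes1 was at 239, 624, 247, 377 and 478 TPM. Spi1, Gata1 and Tal1, all factors of blood lineages, were at 104 TPM ± 7.12 (SD, n = 5), 92.8 TPM ± 9.57 (SD, n = 5) and 76.5 TPM ± 20 (SD, n = 5). Mitf, which acts with KIT in mast cells, was at 34.8, 40.1, 58.1, 35.6 and 36 TPM. Cebpb, by contrast, was at 3.02, 4.74, 8.17, 23.8 and 168 TPM, with library 5 the highest by a wide margin. Cebpa, a factor of granulocytes, was at 0, 0, 1.27, 0 and 0.137 TPM.

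Immediate early genes, which are switched on within minutes of stimulation without new protein synthesis, were abundant in all 5 libraries. The 25 genes held 3.02%, 4.59%, 4.15%, 3.15% and 3.3% of TPM, or 3.64% ± 0.69 (SD, n = 5), and 19 of them were at 100 TPM or more in every library, against 3.21% of all nuclear protein-coding genes. Fos was at 3844, 8683, 7981, 5349 and 9306 TPM, and the orphan nuclear receptor gene Nr4a1 at 5344, 6364, 5521, 4226 and 760.4 TPM. Junb, a partner of Fos, was at 3062, 5291, 4487, 2772 and 3297 TPM and the phosphatase gene Dusp1 at 2014, 4159, 3286, 2323 and 3351 TPM. These levels, like those of the chemokine and cytokine genes, are of cells after sorting from the ears. Any change during isolation was not tested.

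Libraries 2 and 3 had the highest shares of the 5 on both scales, with 3.95%, 6.44%, 5.41%, 4.47% and 3.69% of protein-coding TPM. Jun, at 1947, 3393, 3110.1, 1961 and 2074 TPM, Junb, Egr1 (2436, 3509, 3510.2, 2553 and 2405 TPM) and Ier2 (1236, 2382, 2160.0, 1661 and 1715 TPM) were each highest in libraries 2 and 3. Nr4a1 was lowest in library 5 on both scales, whereas Fos was highest in library 5 on TPM but in library 2 on protein-coding TPM (5029.7, 12203, 10396, 7602 and 10406). Zfp36, which encodes an mRNA-destabilising protein, was at 1142, 2221, 1964, 1485 and 724 TPM with its lowest value in library 5. Klf6 had the lowest coefficient of variation of the list on TPM (2434, 2739, 2648, 2455 and 2559 TPM), and Btg2 was at a mean of 0.722 TPM.

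Chemokine transcripts came almost wholly from a pair of neighbouring genes. Ccl2 and Ccl7 lie in 1 group of 4 listed genes on chr11 (chr11:82035571-82305690), in which Ccl8 was at 0, 0, 1.31, 0 and 0 TPM and Ccl1 was at 15.9, 31.6, 54.3, 20.8 and 6.15 TPM. The 15 listed chemokine genes held 6.77%, 6.24%, 6.86%, 5.88% and 9.55% of TPM, and 5 were under 1 TPM in every library, near the 40.2% of all nuclear protein-coding genes; of these 5, Xcl1 had no count. Ccl4, of a second group on chr11, was at 939, 59.8, 22.3, 9.58 and 648 TPM and Ccl3 at 46.7, 5.2, 0, 0.486 and 25.3 TPM. Libraries 1 and 5 were highest for both, and these ranges were far wider than those of Ccl2 and Ccl7. Cxcl10, an interferon-induced chemokine gene, was at 0, 0, 0, 0.165 and 40.1 TPM, nearly all of it in library 5.

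Of 24 cytokine and growth factor genes, 11 were at 1 TPM or more in every library, near the 36.9% of all nuclear protein-coding genes. Osm, encoding oncostatin M, was the highest at 939, 1477, 2072, 1044 and 1641 TPM. Tnf was at 695, 789, 771, 485 and 485 TPM, Il6 at 897, 301, 667, 619 and 466 TPM and Il4 at 299.9, 631, 239, 233 and 335 TPM. Il4 in library 2 stood above the other 4, which lay between 233 and 335 TPM. Csf1, a growth factor for macrophages, was at 402, 249, 439.5, 351 and 189 TPM, and Il13 at 105, 119, 83.1, 81.9 and 54.1 TPM.

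The cytokine genes on chr11:53602982-54267277 (Il4, Il13, Il5, Csf2 and Il3) did not share a level. Il5 had no count, which allows up to between 0.162 and 0.253 TPM, and Il3 had 197, 0, 510, 0 and 671 counts, or 40.6, 0, 67.8, 0 and 96.5 TPM, so it was present in 3 libraries and without a count in libraries 2 and 4. Csf2, encoding GM-CSF, was at 136, 45, 88.9, 81.8 and 238 TPM. Il31 had no count in any library. Il1b was at 3.13, 136, 34.8, 4.78 and 32.7 TPM, and Il33 and Il9 had means of 0.0212 and 0.0675 TPM.

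**Figure D3:**
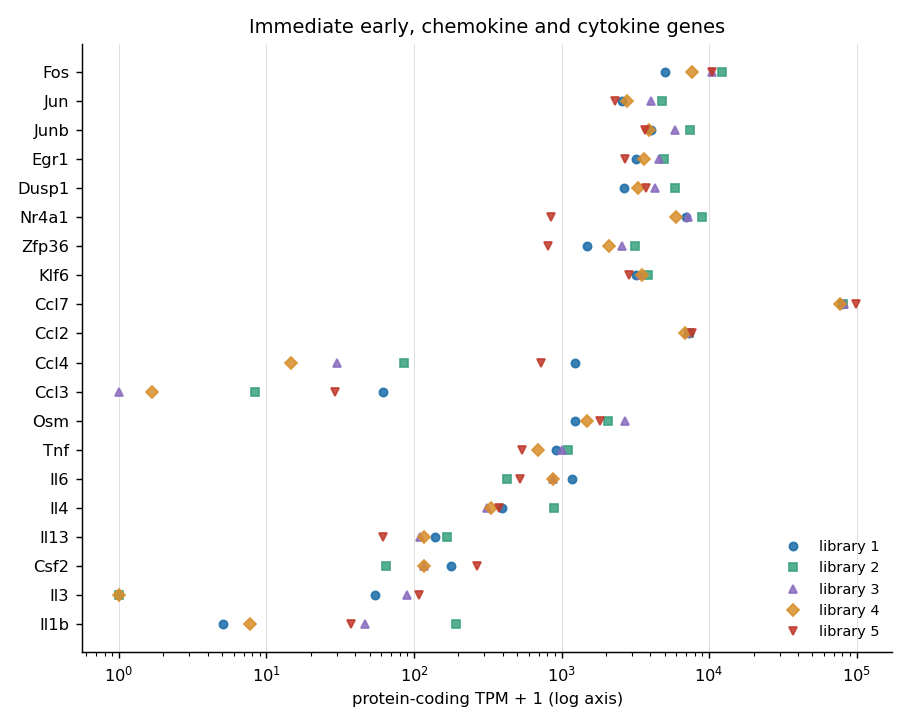
Protein-coding TPM plus 1 (log axis) of 8 immediate early genes, 4 chemokine genes and 8 cytokine genes, 1 symbol per library. Ccl7 and Ccl2 form tight groups of symbols, whereas Ccl4, Ccl3, Il3 and Il1b spread over 1 to 2 orders of magnitude.

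Among transcripts of eicosanoid synthesis, Hpgds, the prostaglandin D synthase of mast cells, was the highest, at 185, 146, 137, 162 and 166 TPM. Lta4h, Alox5ap and Pla2g4a had means of 46.5 TPM ± 10.1 (SD, n = 5), 19.9 TPM ± 3.97 (SD, n = 5) and 7.01 TPM ± 1.76 (SD, n = 5). Alox5, which begins leukotriene synthesis, was at 0.0631, 4.2, 1.32, 4.71 and 0 TPM, and Ltc4s, which makes leukotriene C4, at 1.15, 7.2, 1.9, 5.78 and 11.9 TPM. The cyclooxygenase gene Ptgs1 had 0, 0, 19, 52 and 0 counts and Ptgs2 was at 0, 1.67, 1.97, 8.89 and 0 TPM, both highest in library 4. The 12 genes held between 0.0211% and 0.0278% of TPM, and 5 were at 1 TPM or more in every library, near the 36.9% of all nuclear protein-coding genes.

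MHC class I genes were abundant and MHC class II genes were not. B2m, the light chain of class I, was at 1471, 1459, 1475, 1433 and 2048 TPM and the heavy chain gene H2-D1 at 1849.5, 1468, 1709.9, 1538 and 2429 TPM. Among 7 class II genes, H2-DMb1 was the highest, at a mean of 33.9 TPM ± 5.94 (SD, n = 5), and the class II activator Ciita was at 0.403 TPM. H2-Eb1 was at 0, 8.7, 3.01, 0 and 31.2 TPM and H2-Aa at 2.12, 0, 2.07, 0 and 11.5 TPM, with library 5 the highest for both. The summed class II level was 113.9 TPM in library 5 against 44.2 to 57.3 TPM in the other 4.

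Of 14 interferon response genes, 5 were at 1 TPM or more in every library, near the 36.9% of all nuclear protein-coding genes, and none reached 100 TPM in all 5, which 3.21% of those genes did. Isg15 was at 38.7, 36.1, 61.8, 52.1 and 18.5 TPM, and Gbp2, a guanylate-binding protein gene, at 28.5, 2.24, 14.4, 5.88 and 80 TPM, highest in library 5. Among 15 proliferation genes only Pcna, which also acts in DNA repair, passed 10 TPM in every library, at 182, 118, 175, 167 and 308 TPM, against 18.5% of all nuclear protein-coding genes. Mki67 was at 15.5, 0.676, 2.87, 4.55 and 1.48 TPM and Top2a at 8.02, 0.156, 1.06, 1.22 and 2.13 TPM, both highest in library 1. Of 10 survival genes, Mcl1 was at 373, 626, 938, 846 and 867 TPM and Bcl2 at 7.28, 10.7, 6.8, 7.77 and 7.9 TPM.

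Several genes of general cell function were among the most abundant. Ftl1, Sqstm1, Fth1 (the ferritin heavy chain) and Gpx1 led 19 genes of iron handling and oxidative stress, with means of 7309, 5194, 2759 and 1301 TPM, and Srxn1 and Hmox1 were at 829 TPM ± 233 (SD, n = 5) and 79.1 TPM ± 32.5 (SD, n = 5). Of 16 genes listed for the cytoskeleton, all were above 10 TPM in every library, against 18.5% of all nuclear protein-coding genes. The list was led by Lgals1, which encodes the lectin galectin-1, and by the intermediate filament gene Vim, with means of 3101 and 2680 TPM. The actin-binding gene Tmsb4x and the actin gene Actg1 followed at 2091 and 1377 TPM. The chaperone gene Hspa8 was at 1371, 994, 994, 1047 and 1395 TPM, followed by Hsp90ab1, Hspa5 and Dnajb1, while the stress-induced genes Hspa1a and Hspa1b were at 19.9, 6.77, 3.55, 33.4 and 4.03 and at 42.9, 2.69, 1.64, 17.5 and 5.87 TPM. Hspa1a and Hspa1b are near-identical, so the split of reads between them is uncertain. Ldha, Aldoa, Gapdh and Tpi1 led the glycolysis genes (1387, 765, 536 and 289.7 TPM), and the list held 0.487% ± 0.00888 (SD, n = 5) of protein-coding TPM. Of the translation factors, Eef1a1, Eif1, Tpt1 and Eif5a had means of 2969.9, 1402, 616 and 584 TPM.

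The 85 cytosolic ribosomal protein genes held 2.09% ± 0.271 (SD, n = 5) of TPM, less than the granule proteases in every library. Their median level was 175 TPM, 81 of them were at 1 TPM or more in every library, and Rplp1, encoding an acidic stalk protein, was the highest with a mean of 1962 TPM. The 37 mitochondrial genes held 2.38%, 1.89%, 2.33%, 2.36% and 3.07% of TPM, or a mean of 1.44% as a share of counts. Among them mt-Co1, a subunit of cytochrome oxidase, had a mean of 8029 TPM, mt-Nd1 4033 TPM and mt-Cytb 3415 TPM, while mt-Co3, mt-Co2 and mt-Atp6 had means of 59.8, 32.7 and 33.3 TPM. The values given to genes of the same mitochondrial genome thus differed by more than 100-fold. The genes mt-Co2, mt-Atp6 and mt-Co3 lie close together there, and how reads with several positions were counted is not given. The part of that step in their low values was not tested.

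**Figure D4:**
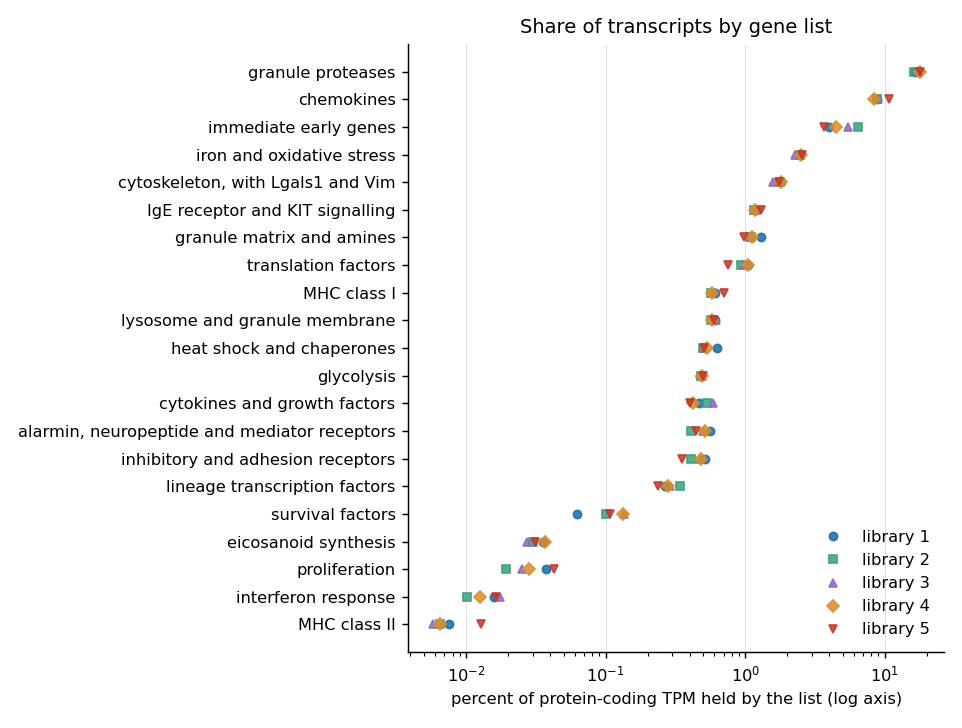
Percent of protein-coding TPM (log axis) held by each of 21 functional gene lists, 1 symbol per library. Granule proteases lead in every library (16.2% to 17.9%), the glycolysis symbols nearly coincide, and the immediate early, survival, proliferation and MHC class II lists are spread more widely.

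The libraries were similar but not alike. Over 39133 genes with a count in any library, Pearson correlations of log2(TPM + 1) for the 10 pairs of libraries averaged 0.9 and ran from 0.88 to 0.917. These are correlations across genes, which are not independent replicates. Over 6204 protein-coding genes with a mean of 10 protein-coding TPM or more, the 4 pairs with library 5 were at 0.874 to 0.884 and the 6 pairs without it at 0.913 to 0.93. For the pairs with library 5, 73.3% to 75.9% of these genes were within 2-fold between the 2 libraries; for the other pairs it was 87.2% to 90%. As a check for a library deposited more than once, the median chi-square of a gene's counts between 2 libraries was 34.9 to 85.8, where reads drawn again from the same library would give 0.455, so all 5 were counted as separate libraries. That comparison says nothing of how alike the cells were. The common biological coefficient of variation, the spread between libraries beyond counting noise as edgeR estimates it, was 0.456 over 10175 genes, and 0.424 without library 5.

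Library 5 departed from the others in a way that followed transcript length. Each library was set against the median of the other 4 over 4294 protein-coding genes at a mean of 20 protein-coding TPM or more. In library 5, 15.6% of these genes were at least 2-fold away, 578 lower and 90 higher, against 2.47% to 4.42% in the other libraries. The lower genes had a median longest transcript of 3964 bases and the higher ones of 1603 bases. Over 5 bins of length, the median log2 ratio of library 5 fell from 0.22 in the shortest (374 to 1557 bases) to -0.59 in the longest (4185 to 19300 bases). Spearman's rho with length across genes was -0.46 in library 5, and 0.25, -0.03, 0.22 and 0.05 in libraries 1 to 4. With GC content it was -0.1 in library 5 and between -0.15 and 0.15 in the others. Genes are not independent in this comparison, and all share the libraries' depth and length scale.

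Among the genes farthest from the other libraries in library 5, named after their values were seen, Igtp and Ifi47, interferon-induced GTPase genes, were at 22.8, 18.7, 19.9, 3.27 and 181 and at 9.81, 5.99, 5.55, 4.6 and 86.8 protein-coding TPM, and Cebpb at 3.95, 6.67, 10.6, 33.8 and 188. The interferon response list did not set library 5 apart, with 0.0158%, 0.0101%, 0.0176%, 0.0125% and 0.0164% of protein-coding TPM, and its member Isg15 was lowest there. Nr4a1 was at 6992, 8944, 7191, 6006 and 850.2 protein-coding TPM, and Egr4, of the same immediate early family as Egr1, was at 63.3, 24.6, 1.42, 103 and 0. Ankrd13d and Man2b2 were among the 10 lowest relative to the other libraries, at 24.4, 20.6, 38.4, 16.5 and 0.164 and at 32, 29.5, 53.2, 24.3 and 2.41 protein-coding TPM. The part of transcript length in each of these values was not tested.

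**Figure D5:**
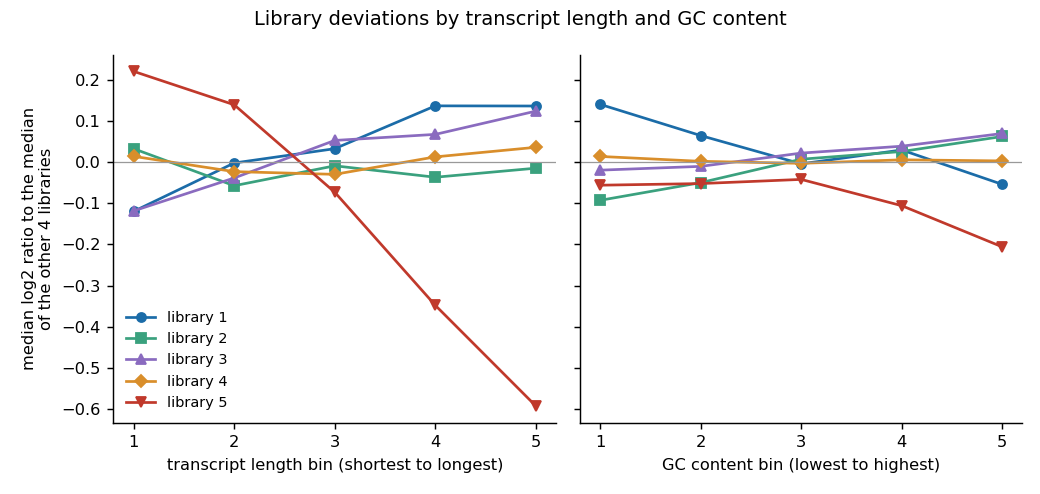
Median log2 ratio of each library to the median of the other 4, over protein-coding genes in 5 bins of transcript length (left) and of GC content (right). The line of library 5 falls from 0.22 to -0.59 with length, while the other libraries stay within 0.15 of 0 in all bins of both panels.

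The spread of single genes depended on their level. The median coefficient of variation (CV, the SD over the mean) of protein-coding TPM was 0.684 for genes at 1 to 5 TPM, 0.311 at 10 to 50 TPM, 0.175 at 100 to 500 TPM and 0.127 from 1000 TPM. Among genes at 1 to 5 TPM, 30.1% had 3 counts or fewer in at least 1 library. For the 1802 protein-coding genes with a mean of 50 TPM or more, the median CV was 0.218 on TPM, 0.187 on protein-coding TPM, and 0.148 on protein-coding TPM without library 5. Library 5 was the highest or the lowest of the 5 for 59.7% of these genes, against 29.9% to 42.7% for each of the others.

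Among all genes with a mean of 50 TPM or more, the widest spread on TPM was that of Ccl4, Mrgprb8, Gadd45g, Gzmb, Psmg4, Olr1, Alyref, Hist1h2bc and the pseudogenes Gm13456 and Mrgprb13, with CVs from 1.28 for Ccl4 to 0.663 for Mrgprb13. Csf2 and Stmn1, which encodes a microtubule regulator, came next among protein-coding genes. Gadd45g, a stress response gene, was at 45.7, 168, 46.3, 23.5 and 111 TPM. Olr1, a scavenger receptor gene, was at 369, 70.1, 166, 121 and 125 TPM, highest in library 1, and Psmg4, of proteasome assembly, was at 45.5, 44.2, 39.3, 46.3 and 149 TPM, highest in library 5. Of the 10 protein-coding genes with the widest spread on TPM, 8 were also among the 10 widest on protein-coding TPM.

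The genes with the narrowest spread on TPM were Eif1b, Slc25a3, Slc2a6, Nap1l4, Ly6e, Snx1, Inpp5b, Rpl10a, Capza1 and Actg1, with CVs from 0.0346 to 0.05. Eif1b, a translation initiation gene, was at 235, 220.0, 214, 220.2 and 222 TPM, and Actg1, of γ-actin, at 1348, 1449, 1373, 1279.7 and 1436 TPM. None of these 10 was among the 10 narrowest on protein-coding TPM, which were Psmd8, Mlf2, Rac2, Eif5a, Adipor1, Aamp, Rab27b, Mrfap1, Rabac1 and Sqstm1. Psmd8, of the proteasome, was at 186, 192, 192, 187 and 189 protein-coding TPM, Rac2, a GTPase of blood cells, at 1008, 972, 1009, 1002 and 957, and Rab27b, known for granule secretion, at 198, 193, 194, 205 and 205. Which genes were the most even therefore depended on the scale.

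In all, 10 genes reached 50 TPM in 1 library and had 3 counts or fewer in another, 3 of them protein-coding. The 5 with the highest values were Gm37235, Il3, Mir7655, Snord55 and Egr4, and the median length of the 10 was 72.5 bases. Egr4 had 802, 454, 28, 1680 and 0 counts. Tnfsf14, encoding the cytokine LIGHT, had 2, 22, 132, 1156 and 22 counts, with library 4 the highest.

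Between 12700 and 15532 genes were at 1 TPM or more in a library, and 8965 were in all 5, of which 8082 were protein-coding. A further 2458 protein-coding genes reached 1 TPM in 1 library only; the median of their highest values was 1.62 TPM, against 24.4 TPM for those detected in all 5. At 100 TPM or more in all 5 libraries there were 703 protein-coding genes, and at 1000 TPM or more 56. Library 1, with the lowest total count, had the most genes at 1 TPM or more. Xist, the X-inactivation RNA, was at 24.9, 14.4, 21.7, 22.1 and 30.1 TPM, and the Y-linked genes Ddx3y, Eif2s3y, Kdm5d and Uty had no count in any of the 5.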

How the data were processed

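Gene expression was measured by RNA sequencing in mast cells sorted from mouse ear skin, and 5 of the 14 libraries were used. The deposited table holds raw read counts for each gene, all whole, with a Length column, per the file headers. STAR and featureCounts and the build mm10 are named in the submitters' processing notes; versions, the strand setting and the treatment of reads with several positions are not given in the sources used here. No count column was without a sample (0 of 14). Of 55487 gene identifiers, 55394 had a symbol in GENCODE M21, and Length equalled the union of annotated exons for all 55094 with the same version. Where a symbol stood on more than 1 gene (Aldoa), the lower identifier was used.

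TPM were computed from counts and Length with pandas 2.3.3, with no filter or pseudocount unless stated. Dispersion was estimated with edgeR 4.0.16 (intercept only, TMM, filterByExpr at 10 counts) in R 4.3.3; no groups were tested. TPM, the coefficient of variation and the dispersion estimate were tested on simulated data. Members and lists were chosen with earlier results of these data known. The text names the 25 genes with a gene name among the 30 nuclear genes of highest mean TPM, and some of the other 5. It also names the 4 highest members (for some lists fewer) and members without counts of 35 lists, and further members that define a role. The 10 widest and narrowest CVs from 50 TPM are named. So are genes at 50 TPM in 1 library with 3 counts or fewer in another. Genes set apart by library 5 were chosen after their values were seen. Some list members are not reported here. Promoters are from RefSeq. Alternatives were other gene lengths, CPM, other denominators, thresholds and pseudocounts, DESeq2 1.42.0 size factors, and leaving out each library; leaving out the 57-base genes, protein-coding TPM of single genes and the spread without library 5 were added after the data were seen. Total counts of 17706764 to 27068993 limit the precision of low levels, and limits taken from counts cover counting error only.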

Additional observations from a re-analysis of the deposited data

Results flagged for a closer look

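Values of the 5 libraries were examined for a library whose gap to its neighbour took up more than 0.71 of the range. For normal values, chance gives this in about 1 of 20 independent sets of 5. In all, 20 of 117 sets were so marked, 16 of them by library 5. The sets overlap, since most genes and lists entered on both scales and lists hold some of the genes. The 20 marked sets therefore cannot be set against that rate. On TPM, library 5 was the highest for Ccl7 (87936 TPM, others 54006 to 63092), Cma1 (69852 TPM, others 41735 to 46914), Cpa3 (39909 TPM, others 26625 to 28858), Fcer1g (5190.1 TPM, others 3387 to 3865) and H3f3b (4796 TPM, others 2490 to 2989). Library 1 was the highest for Plek (4290.2 TPM, others 2419.9 to 2952).

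On protein-coding TPM, library 5 was marked for Ccl7 (98324, others 76751 to 82181) and Cma1 (78103, others 58652 to 63756), and not for Cpa3, Fcer1g or H3f3b. The log2 ratio of library 5 to the median of the others was 0.30 for Ccl7 (longest transcript 801 bases) and 0.37 for Cma1 (1090 bases), beside a median of 0.22 over the 859 genes in the shortest length bin, where both lie. Its 10 most abundant protein-coding genes held 33.3% of protein-coding TPM, against 29.2% to 30.2% in the others.

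Among lists, library 5 held the largest share of TPM for IgE receptor and KIT signalling (1.16%, others 0.822% to 0.908%), chemokines (9.55%, others 5.88% to 6.86%), iron and oxidative stress (2.29%, others 1.75% to 1.88%), MHC class I (0.63%, others 0.405% to 0.467%) and MHC class II (0.0114%, others 0.00442% to 0.00573%). Of protein-coding TPM, it held the largest share for IgE receptor and KIT signalling (1.29%), chemokines (10.7%) and MHC class II (0.0127%). Library 1 had the largest share of protein-coding TPM for heat shock and chaperones (0.632%, others 0.499% to 0.531%) and of TPM for small RNAs other than miRNAs (0.279%, others 0.184% to 0.202%). Library 3 had the lowest share of protein-coding TPM for the cytoskeleton list (1.57%, others 1.75% to 1.82%). Without its members Lgals1 and Vim, which are not actin genes and were left out after the data were seen, library 3 held 0.897%, and the others 1% to 1.02%.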

How the results depend on the processing

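No paired analysis was possible because no groups were compared. With the longest annotated transcript as length, the top 10 genes held 33.7% of TPM, 67.4 genes on average reached 50%, granule proteases held 11.5%, ribosomal protein genes 2.58%, and the mean correlation was 0.913. With Length minus 200 bases, ribosomal protein genes held 2.45% and the correlation was 0.881. As CPM, without length, the top 10 genes held 15.8%, 268 genes reached 50%, granule proteases held 7.73%, ribosomal protein genes 1.55% and mitochondrial genes 1.44%, and the correlation was 0.943. With protein-coding genes as denominator, these values were 30.5%, 85.6 genes, 17.1%, 2.72%, 3.12% and 0.941. Without the 4 near-identical 57-base genes, they were 28.9%, 94 genes, 15.7%, 2.49% and 2.86%. At 5 TPM, 5896 genes were detected in all 5 libraries. The mean correlation was 0.795 with a pseudocount of 0.1, 0.958 with 10 and 0.631 as Spearman's rho. The biological coefficient of variation was 1.46 with no filter and 0.404 from 10 CPM.

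Leaving out each library in turn gave 37.6% to 40.3% for the top 10 genes, 35 to 44.8 genes to reach 50%, 12.5% to 13.5% for granule proteases, 1.98% to 2.14% for ribosomal protein genes, 2.24% to 2.54% for mitochondrial genes, 9132 to 9530 genes detected, correlations of 0.894 to 0.907 and coefficients of 0.424 to 0.479. Counts thinned to the smallest total gave 8957 genes detected in all 5. Of the 25 named genes of the top 30, 23 to 25 kept their place among the 30 under each alternative run for single genes (CPM was not). The cause of these shifts was not tested. Granule proteases held more TPM than ribosomal protein or mitochondrial genes under every alternative run, none of which changed how reads were assigned to genes.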
